A study of Rattus norvegicus with 288 samples.

Results

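The 6 antioxidant genes described here are Nqo1, Hmox1, Srxn1, Txnrd1, Gclc and Gclm, which are commonly listed as targets of the transcription factor Nrf2 (gene Nfe2l2). They are 6 of the 14217 genes that the array measured, taken by name with no cutoff on their values, though earlier results of these data were known when the list was made. Each gene was read in each tissue from its brightest probe set there. All 6 passed the filter on low signal in the 3 tissues, so no member was lost. The name of the group implies a shared response, and the 6 members did not all share one. In the kidney at 6 h after oxaliplatin 4 members rose and Gclc fell by a small amount, where 12.7% of all genes rose and 7.88% fell. Gclm did not pass the test in either direction. At 1 h and at 24 h 2 members passed.

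The samples were kidney (left), liver (left lateral and median lobes) and heart (apex with both ventricles) of 96 male Sprague-Dawley rats, 8 weeks old, each carrying a femoral vein cannula. Each animal was first infused through the vein for 30 min with oxaliplatin (15 mg/kg, a DNA-crosslinking platinum agent) or with D5W (dextrose in water), the vehicle. An oral dose followed 30 min later and was one of 4: sunitinib (a receptor tyrosine kinase inhibitor, 5 mg/kg) or its vehicle sterile water, or sorafenib (an inhibitor of several kinases, 25 mg/kg) or the solvent blend used to give it, which contains Pluronic F68 and glycols and is called F68 below. The 8 treatments were sampled 1, 6 and 24 h after dosing ended, which gave 72 groups of 4 rats and 288 arrays. Rats were assigned to the groups arbitrarily. Rats given water or sunitinib were dosed on one day and those given F68 or sorafenib on another, 2 days later. The vehicle and the day therefore cannot be told apart in any comparison of F68 with water.

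Nrf2 is kept low in resting cells by Keap1, which presents it to a Cul3 ubiquitin ligase. Electrophiles and oxidants modify Keap1, Nrf2 then escapes degradation, pairs with a small Maf protein and binds antioxidant response elements in the promoters and enhancers of its target genes. The liver conjugates many drugs with glutathione, and the kidney tubule takes up and exports such conjugates. The members cover different steps. Nqo1 is a quinone reductase. Hmox1 is the inducible haem oxygenase and also answers to other stress signals. Srxn1 (sulfiredoxin) repairs hyperoxidised peroxiredoxins, Txnrd1 is the cytosolic thioredoxin reductase, and Gclc and Gclm are the catalytic and modifier subunits of glutamate-cysteine ligase, which makes the first bond of glutathione.

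RefSeq promoters of the rat assembly GRCr8 were found for 5 of the 6 members, and Hmox1 had no entry. The letters of 2 motifs were searched on both strands, from 250 bases before to 50 bases after each start: the core of the antioxidant response element, TGACNNNGC, and the related AP-1 type element TGANTCA. The core was present in 12.1% and the AP-1 type in 7.33% of 33469 promoters searched the same way. The promoters of 4 members are printed because they differ in these letters, for genes whose oxaliplatin values, given below, also differ. Each runs from 200 bases before to 10 bases after the start, 5′ to 3′ on the gene's strand, with the matched letters in capitals. Nqo1 (chr19:52220258-52220467, minus strand) held neither motif. Srxn1 (chr3:161064612-161064821, plus strand) held 2 AP-1 type matches and no core as searched. The later of these matches is followed by gc and so differs from the core by 1 letter on the gene's strand. Both matches are preceded by cc, and each so differs from the core by 1 letter on the opposite strand. Txnrd1 (chr7:22755895-22756104, minus strand) and Gclm (chr2:213031935-213032144, plus strand) each held 1 core, on the opposite strand.
Nqo1: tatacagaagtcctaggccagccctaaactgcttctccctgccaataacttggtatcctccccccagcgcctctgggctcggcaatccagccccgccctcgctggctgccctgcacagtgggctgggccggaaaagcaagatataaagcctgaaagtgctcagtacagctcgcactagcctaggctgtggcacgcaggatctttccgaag
Srxn1: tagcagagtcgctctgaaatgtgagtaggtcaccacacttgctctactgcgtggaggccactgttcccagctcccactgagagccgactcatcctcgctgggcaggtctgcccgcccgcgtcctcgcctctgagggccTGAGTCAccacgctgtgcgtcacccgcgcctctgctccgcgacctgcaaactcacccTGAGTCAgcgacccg
Txnrd1: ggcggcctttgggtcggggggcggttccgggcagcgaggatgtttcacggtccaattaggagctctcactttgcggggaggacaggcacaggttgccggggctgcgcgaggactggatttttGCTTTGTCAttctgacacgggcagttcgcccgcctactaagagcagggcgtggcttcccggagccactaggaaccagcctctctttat
Gclm: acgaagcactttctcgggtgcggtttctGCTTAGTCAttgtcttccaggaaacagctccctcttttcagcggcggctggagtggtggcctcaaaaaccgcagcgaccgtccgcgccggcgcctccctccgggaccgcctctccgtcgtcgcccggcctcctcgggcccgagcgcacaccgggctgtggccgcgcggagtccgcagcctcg
Gclc (chr8:87510276-87510485, plus strand) and a second Txnrd1 start (chr7:22764842-22765051, minus strand) held no match in their windows. A match here is a run of letters and not a measured binding site, and a window without a match leaves more distant elements unsearched.

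The values are log2 signals from robust multi-array averaging (RMA), a method that corrects background, equalises the arrays and summarises the probes of a set. A gene is said to have risen or fallen, or to have passed the test, when its limma p-value after Benjamini-Hochberg adjustment over all genes tested in that comparison was under 0.05. Counts of tests with an unadjusted p under 0.05 have no share of all genes beside them. Values after ± are standard errors from the fit unless SD is written. Arrays measure whole tissue, so fewer cells of a type and less RNA per cell cannot be told apart. On 2 arrays the tissue label went against the markers, and both were left out. Among the 24 h livers of D5W then sorafenib, replicate 1 had kidney uromodulin (Umod) at 14.36 and albumin (Alb) at 6.92. Among the 24 h kidneys of the same treatment, replicate 4 had Umod at 6.40 and Alb at 15.04. These 2 groups then held 3 rats. Another kidney array of the latter group was kept with Alb at 12.97, and so was a kidney array of oxaliplatin then sunitinib at 1 h with a low hybridisation control (BioB 4.69 against a kidney median of 8.56). The defining markers of the labelled tissue were present on the remaining arrays, but Alb was raised on others too. It ran from 5.63 to 13.26 over the hearts and reached 12.74 in a 6 h kidney of D5W then sorafenib.

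In rats that received vehicles only (D5W, then water or F68), Gclc and Gclm were most abundant in kidney. Over the 24 vehicle rats Gclc stood at 14.16 ± 0.07 (SD) in kidney, 10.64 ± 0.34 in liver and 7.92 ± 0.14 in heart. Gclm stood at 13.22 ± 0.11 in kidney, 10.93 ± 0.31 in liver and 8.57 ± 0.12 in heart. The lowest kidney rat was above the top liver rat for each of these genes. Gclc in kidney lay above 99.8% and Gclm above 98.3% of the genes on the kidney arrays, close to the top of the scale, where the highest value of any array was 15.26. Txnrd1 stood at 11.91 ± 0.09 (SD) in kidney, 11.25 ± 0.17 in liver and 9.95 ± 0.18 in heart.

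Nqo1 and Hmox1 had another order, with the liver first. Nqo1 stood at 11.03 ± 0.81 (SD, n = 24) in liver, 9.50 ± 0.39 in kidney and 9.34 ± 0.17 in heart, so kidney and heart differed by less than the SD of the kidney rats. Hmox1 stood at 10.64 ± 0.49 in liver, 7.95 ± 0.45 in kidney and 7.89 ± 0.39 in heart, where the latter pair was again closer than its spread. Srxn1 stood at 9.09 ± 0.23 in liver, 8.82 ± 0.38 in kidney and 7.75 ± 0.38 in heart, with liver and kidney closer than the kidney SD. Liver Nqo1 varied most between vehicle rats, from 8.35 to 12.50. These orders rest on levels across tissues, and the sources used here do not say whether RMA was run on all tissues at once. The median of all probe sets was 7.32 to 7.81 on kidney arrays against 6.63 to 6.78 on the others, so kidney levels carry an offset of that size. The kidney lead of Txnrd1 over liver lies within it, so the order of these tissues is not settled for that gene, and the leads of Gclc and Gclm are larger than it.

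**Figure D1:**
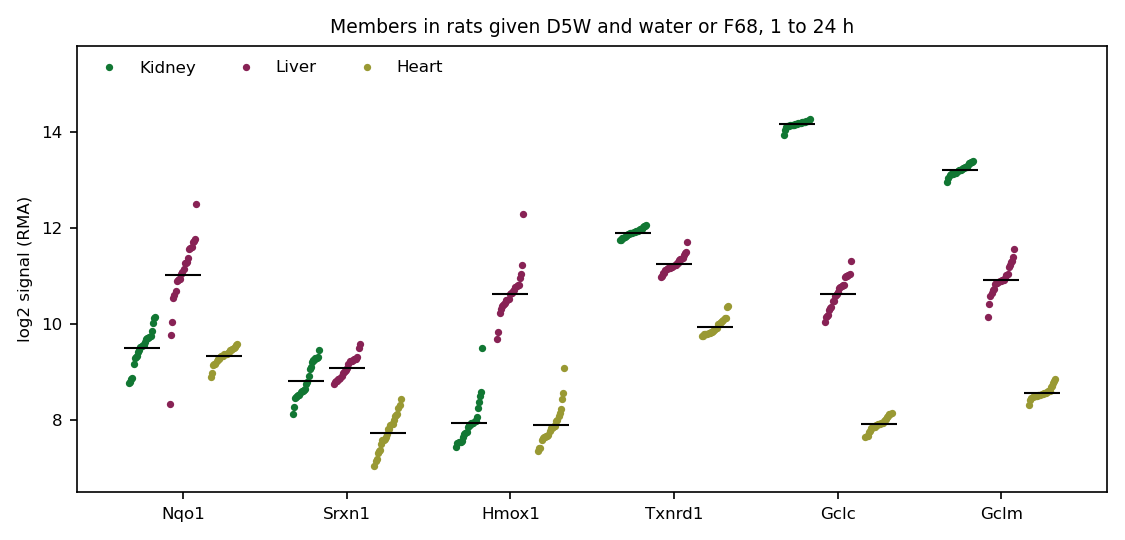
RMA log2 signal of each member (x axis) in the 24 vehicle rats of each tissue, sorted within a tissue. Points are rats over 1, 6 and 24 h and lines are means: Gclc and Gclm separate the tissues fully, with kidney means of 14.16 and 13.22, whereas Nqo1 and Hmox1 are led by liver at 11.03 and 10.64.

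Oxaliplatin was compared with D5W to ask what the platinum drug did by itself, over both oral vehicles and so with 8 rats against 8 at each time. In kidney, Srxn1 and Hmox1 were already higher 1 h after dosing. At 6 h Nqo1, Hmox1, Srxn1 and Txnrd1 were all higher, by 1.51- to 3.10-fold, and Gclc was 1.16-fold lower. At 24 h Hmox1 and Txnrd1 were no longer apart from D5W and Nqo1 was still 1.67-fold higher. The 3 times had 2, 5 and 2 members past the test, against 9.41%, 20.6% and 7.77% of all 12309 genes tested in kidney.

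Nqo1, the quinone reductase, ran from 8.85 to 10.09 (median 9.60) after oxaliplatin at 1 h and from 8.77 to 9.87 (median 9.32) after D5W. The groups overlapped and the difference was 0.19 ± 0.19. At 6 h it ran from 10.43 to 11.60 (median 11.11) after oxaliplatin against 8.86 to 9.73 (median 9.56). Every oxaliplatin kidney with water or F68 was above every such D5W kidney, with a difference of 1.63 ± 0.19 (adjusted p = 2.61e-10). At 24 h the values were 10.20 to 10.87 (median 10.48) against 9.34 to 10.15 (median 9.70), again without overlap. The difference was 0.74 ± 0.19 (adjusted p = 0.00870). With any oral dose the groups overlapped, and 15 of 16 oxaliplatin kidneys were above all D5W kidneys at 6 h and 7 of 16 at 24 h.

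Hmox1, the haem oxygenase, ran from 8.38 to 9.40 (median 9.11) at 1 h after oxaliplatin and from 7.55 to 9.51 (median 7.95) after D5W. The ranges overlapped through a single D5W then F68 rat at 9.51. The difference was 0.96 ± 0.20 (adjusted p = 4.45e-04) with that rat and 1.18 ± 0.19 without it. At 6 h the values were 8.49 to 10.18 (median 9.20) against 7.44 to 8.50 (median 7.65). Of the 8 oxaliplatin rats 7 were above all D5W rats, with a difference of 1.53 ± 0.20 (adjusted p = 8.25e-09). At 24 h the ranges overlapped, at 7.66 to 8.33 (median 7.87) against 7.54 to 8.60 (median 8.01), and the difference was -0.12 ± 0.20.

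Srxn1, the sulfiredoxin, ran from 9.03 to 10.69 (median 9.86) at 1 h after oxaliplatin and from 8.13 to 9.30 (median 8.67) after D5W, with 7 of 8 rats above all D5W rats. The difference was 1.20 ± 0.23 (adjusted p = 7.74e-05), or 2.30-fold. At 6 h the values were 9.63 to 11.23 (median 10.41) against 8.49 to 9.33 (median 8.91). The groups did not overlap, with a difference of 1.40 ± 0.23 (adjusted p = 1.66e-06). At 24 h they were 8.98 to 9.85 (median 9.45) against 8.28 to 9.46 (median 8.70), and the difference of 0.60 ± 0.23 had an adjusted p of 0.0999. A second Srxn1 probe set gave 1.26, 1.45 and 0.70 at the 3 times and passed at 24 h (adjusted p = 0.047), and so did the set used here when all 4 oral doses were averaged (0.58, adjusted p = 0.00932).

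Txnrd1, the thioredoxin reductase, had the smallest spread between rats of the members that rose. At 1 h it ran from 11.77 to 12.17 (median 12.00) after oxaliplatin and from 11.75 to 12.06 (median 11.86) after D5W, and the difference of 0.12 ± 0.05 did not pass, though a second Txnrd1 probe set passed with 0.20 (adjusted p = 0.0250). At 6 h it ran from 12.37 to 12.63 (median 12.48) against 11.75 to 12.04 (median 11.91). No values overlapped and the difference was 0.60 ± 0.05 (adjusted p = 2.56e-18). At 24 h it was back among the D5W values, 11.92 to 12.11 against 11.89 to 12.04, with a difference of 0.03 ± 0.05.

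The subunits of glutamate-cysteine ligase did otherwise. Gclc ran from 13.95 to 14.14 (median 14.10) at 1 h after oxaliplatin and from 13.93 to 14.27 (median 14.15) after D5W, which overlapped. At 6 h it ran from 13.83 to 14.03 (median 13.996) against 14.10 to 14.25 (median 14.20), and at 24 h from 13.96 to 14.11 (median 14.03) against 14.12 to 14.20 (median 14.17). All oxaliplatin kidneys with water or F68 lay below all such D5W kidneys at these 2 times. With any oral dose, 15 of 16 oxaliplatin kidneys lay below all D5W kidneys at 6 h and 12 of 16 at 24 h. With water or F68 the differences were -0.22 ± 0.04 at 6 h (adjusted p = 1.61e-06) and -0.14 ± 0.04 at 24 h (adjusted p = 0.00879). With the left-out array labelled kidney kept, both calls were lost (adjusted p = 0.501 and 0.835). That array lies outside the groups compared here, so the differences stayed at -0.22 and -0.14 and only the spread shared by all groups changed. A second Gclc probe set gave -0.29 at 6 h and -0.11 at 24 h, the latter not past the test. Gclm had differences of 0.02, 0.07 and -0.05, each ± 0.05, and its 95% interval at 6 h ran from -0.04 to 0.17, which is far below the differences of Nqo1, Hmox1 and Srxn1. Kidney Gclc and Gclm lie close to the top of the scale, as given above, and how far that limits a visible rise was not tested.

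**Figure D2:**
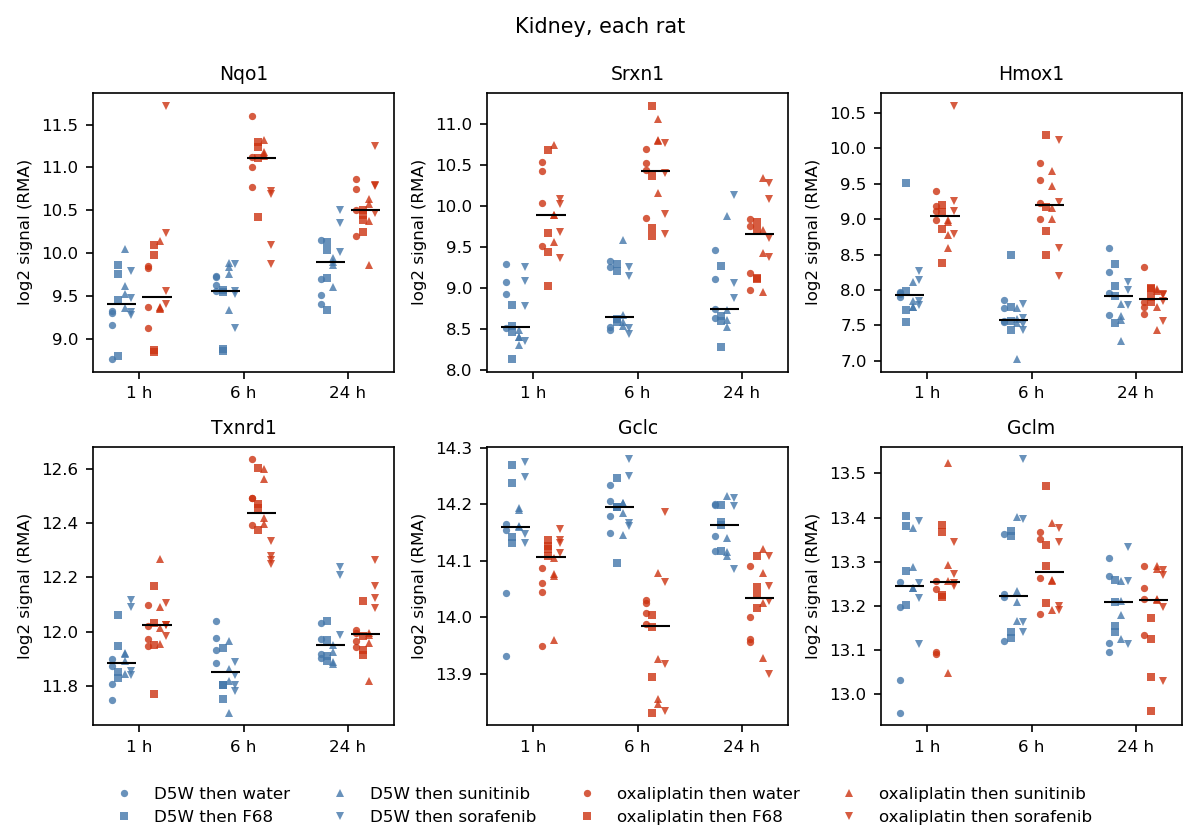
RMA log2 signal of each member in every kidney (y axes differ between panels) at 1, 6 and 24 h, D5W in blue and oxaliplatin in red, with symbols for the oral dose and lines for medians. At 6 h Srxn1 and Txnrd1 of all 16 oxaliplatin kidneys lie above all 16 D5W kidneys, Nqo1 of 15 and Hmox1 of 14, whereas Gclm is mixed at every time.

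The course over time differed between members. From 1 to 6 h the kidney difference grew by 1.44 ± 0.27 for Nqo1 (adjusted p = 1.35e-04) and 0.48 ± 0.06 for Txnrd1 (adjusted p = 4.05e-08) and moved by -0.16 ± 0.05 for Gclc (adjusted p = 0.0301), where 7.99% of genes passed. The growth of Hmox1 and Srxn1, both already higher at 1 h, did not pass. From 6 to 24 h the difference fell by 1.66 for Hmox1 (adjusted p = 2.21e-05), by 0.89 for Nqo1 (adjusted p = 0.0214) and by 0.57 for Txnrd1 (adjusted p = 4.06e-10), where 11.3% of genes passed. The decline of Srxn1 did not pass in kidney. In liver the Srxn1 difference fell by 0.70 from 6 to 24 h (adjusted p = 0.00354), where 9.13% of genes passed, and in heart that of Nqo1 grew by 0.29 (adjusted p = 0.0480), where 7.62% passed. The heart call was lost with no filter (adjusted p = 0.0589), quantile normalization (adjusted p = 0.0740) and the beta-actin covariate (adjusted p = 0.0509). From 1 to 6 h 1.29% of genes passed in liver and 0.893% in heart, without a member among them.

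Some markers of cell types moved in these kidneys. Of 6 proximal tubule markers 2 were lower at 1 and at 6 h and 0 at 24 h, of 9 macrophage markers 0, 1 and 2 were lower, and of 4 erythroid markers 2 were lower at 24 h. The median of the erythroid markers at 24 h was 9.06 after D5W then water and 9.49 after D5W then F68, against 8.12 and 8.65 after oxaliplatin, and it was also lower with sunitinib (9.24 and 8.40) and sorafenib (9.06 and 8.15). Their part in the members' differences was not tested.

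All rats given oxaliplatin were infused before the oral dose, so the comparison can be repeated under each oral dose with 4 rats against 4. At 6 h the kidney differences of Hmox1 (1.36 to 1.85), Srxn1 (1.31 to 1.86), Txnrd1 (0.45 to 0.66) and Gclc (-0.26 to -0.18) passed the test under all 4 oral doses. Nqo1 passed under 3, with 1.47 under water, 1.80 under F68 and 1.496 under sunitinib, and had 0.82 ± 0.27 under sorafenib (adjusted p = 0.0536). Of all genes 11.2%, 8.9%, 16.2% and 6.54% passed under water, F68, sunitinib and sorafenib at that time. At 1 h Hmox1 (0.70 to 1.43) and Srxn1 (0.92 to 1.63) each passed under 3 oral doses, where 3.64%, 2.37%, 13.1% and 3.8% of genes passed. At 24 h Nqo1 had values of 0.53 to 0.88 and Gclc of -0.16 to -0.11 under the 4 oral doses, and neither passed under any single one. Of all genes 2.45%, 1.44%, 1.55% and 0.349% passed at that time.

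**Figure D3:**
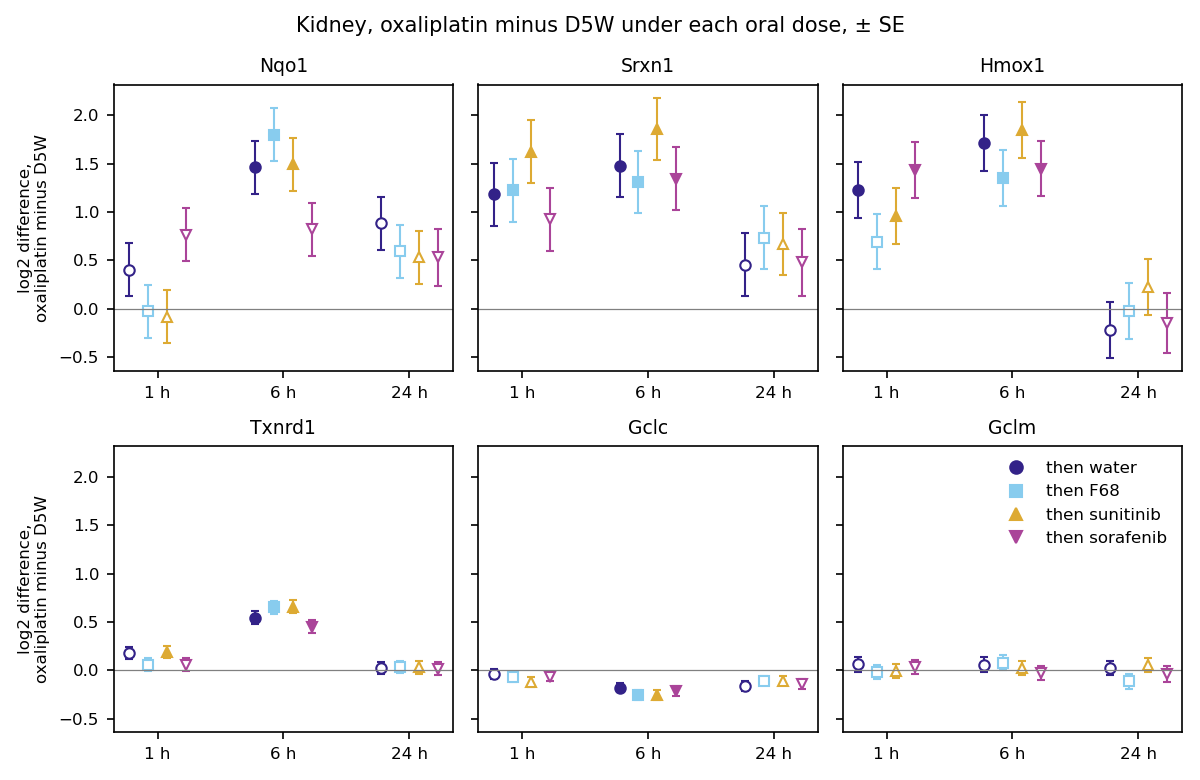
Kidney log2 difference, oxaliplatin minus D5W, of each member under each oral dose (4 rats against 4, fewer at 24 h with sorafenib), bars ± SE, filled where the test was passed. At 6 h the symbols of Hmox1, Srxn1, Txnrd1 and Gclc are filled under all 4 oral doses, and Nqo1 under sorafenib sits at 0.82 with an open symbol.

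Whether the kinase inhibitors changed the response to oxaliplatin was asked by the interaction, the oxaliplatin difference under the drug minus that under its own vehicle. An unexplained letter in the sample titles, described below, runs in opposite order under drug and vehicle. The letter and the interaction therefore cannot be told apart. For sunitinib 0 of 54 member tests passed in limma and 0 had an unadjusted p under 0.05. For sorafenib 0 of 54 passed and 5 had an unadjusted p under 0.05. The kidney Nqo1 interaction with sorafenib was 0.79 ± 0.39 at 1 h (adjusted p = 0.769) and -0.98 ± 0.39 at 6 h (adjusted p = 0.999), with a 95% interval of -1.75 to -0.20 at 6 h. Of all genes 0%, 0% and 0% passed the sunitinib interaction in kidney at 1, 6 and 24 h, 0%, 0% and 0% in liver and 6.56%, 0% and 14.4% in heart. The sorafenib interaction was passed by 0%, 0% and 0.00812% in kidney, 0%, 0% and 38.2% in liver and 5.58%, 17.1% and 0% in heart. One kidney of oxaliplatin then sorafenib at 1 h held Nqo1 at 11.72, and the next in that group was at 10.23. Another kidney of the same group held Hmox1 at 10.61.

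Against rats given both vehicles, each combination is given beside oxaliplatin with the same vehicle, and the comparisons share the vehicle rats. At 6 h in kidney oxaliplatin then water had Nqo1 at 1.47, Hmox1 at 1.71, Srxn1 at 1.48, Txnrd1 at 0.54 and Gclc at -0.18. Oxaliplatin then sunitinib had Nqo1 at 1.54, Hmox1 at 1.65, Srxn1 at 1.81, Txnrd1 at 0.54 and Gclc at -0.27, all past the test with 16.3% of genes. Oxaliplatin then F68 had Nqo1 at 1.80, Hmox1 at 1.36, Srxn1 at 1.31, Txnrd1 at 0.65 and Gclc at -0.26. Oxaliplatin then sorafenib had Nqo1 at 1.13, Hmox1 at 1.23, Srxn1 at 1.26, Txnrd1 at 0.46 and Gclc at -0.18, all past the test with 8.1% of genes. At 1 h Hmox1 and Srxn1 passed in both combinations (0.89 and 1.07 with sunitinib, 1.25 and 1.31 with sorafenib; 12.7% and 2.33% of genes) and Txnrd1 with sunitinib (0.25). Oxaliplatin then water had Hmox1 at 1.23, Srxn1 at 1.18 and Txnrd1 at 0.18, and oxaliplatin then F68 had Hmox1 at 0.70 and Srxn1 at 1.22. Without the kidney array of low BioB and the 24 h kidney of high Alb these 3 sunitinib values were 0.84, 1.12 and 0.19 and none passed. At 24 h oxaliplatin then sorafenib had Nqo1 at 1.02 and Srxn1 at 1.14 (2.68% of genes), and with sunitinib no member passed (1.37% of genes). Oxaliplatin then F68 had Nqo1 at 0.59 and Srxn1 at 0.74 at that time, neither past the test. Both calls with sorafenib were lost with all arrays as labelled (adjusted p = 0.120 for Nqo1 and 0.0556 for Srxn1).

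In liver the oxaliplatin response was smaller and held fewer members, with 0, 2 and 0 past the limma test at 1, 6 and 24 h, against 3.46%, 10.4% and 6.4% of 11618 genes. Over the 3 times 4 of the 18 liver tests had an unadjusted p under 0.05. At 6 h Srxn1 ran from 9.38 to 10.09 (median 9.62) after oxaliplatin against 8.82 to 9.50 (median 9.16). Of 8 rats 7 were above all D5W rats, and the difference was 0.54 ± 0.11 (adjusted p = 6.24e-04). Txnrd1 ran from 11.20 to 11.64 (median 11.50) against 10.99 to 11.51 (median 11.20), with overlap and a difference of 0.23 ± 0.07 (adjusted p = 0.0367). That call was lost when any of 8 of the 16 arrays was left out, which were D5W then F68 replicates 2 and 4, D5W then water replicates 1 and 4, oxaliplatin then F68 replicates 3 and 4 and oxaliplatin then water replicates 2 and 4, with values of 0.19 to 0.22.

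Hmox1 behaved differently in liver. At 1 h it ran from 11.002 to 11.95 (median 11.32) after oxaliplatin and from 10.42 to 10.82 (median 10.67) after D5W. The groups did not overlap, but the difference of 0.72 ± 0.28 had an adjusted p of 0.155. Averaged over all 4 oral doses, liver Hmox1 at 1 h was at 0.72 (adjusted p = 0.00968), with 0.56 to 0.89 under the single doses, and Srxn1 was at 0.28 (adjusted p = 0.0204), so both passed there. At 6 h the oxaliplatin median was the lower one, with 10.13 to 11.66 (median 10.32) against 10.23 to 12.30 (median 10.84) and a difference of -0.26 ± 0.28. One liver of D5W then F68 at 6 h stood apart, with Hmox1 at 12.30, Nqo1 at 12.50 and a median of the macrophage markers of 12.29 against 10.92 to 11.24 in the other 3 rats of its group. Liver Nqo1 at 6 h ran from 11.19 to 12.47 (median 11.93) against 10.55 to 12.50 (median 11.09), with a difference of 0.65 ± 0.35 (adjusted p = 0.237) and of 0.87 ± 0.35 (adjusted p = 0.104) without that rat. Without it Srxn1 was at 0.49 and still passed, Txnrd1 at 0.20 (adjusted p = 0.0825) and Hmox1 at -0.05.

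Macrophage markers moved with oxaliplatin in liver: of 10 tested (12 listed) 2, 5 and 7 were lower at 1, 6 and 24 h, with a median difference of -0.25, -0.34 and -0.44. Of 6 endothelial markers 4 were lower at 1 h, and of 4 erythroid markers 4 were lower at 24 h. Their part in the liver values was not tested.

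In heart no member passed at 1 or 6 h in limma, where 1.23% and 0.866% of 11316 genes did. Of the 18 heart tests 4 had an unadjusted p under 0.05. At 24 h Nqo1 alone passed, with 19.2% of genes. It ran from 9.49 to 9.95 (median 9.77) after oxaliplatin against 8.91 to 9.58 (median 9.40), and 7 of 8 rats were above all D5W rats. The difference was 0.46 ± 0.07 (adjusted p = 2.05e-07), or 1.38-fold. Under each oral dose it was 0.59 with water, 0.34 with F68 (adjusted p = 0.1002), 0.33 with sunitinib (adjusted p = 0.0787) and 0.17 with sorafenib (adjusted p = 0.596), where 22.1%, 0.23%, 1.03% and 0.0442% of genes passed. The hearts of D5W then water at 24 h differed from the others in RNA quality, with a beta-actin 3′ minus 5′ difference of 0.71 to 0.81 against 0.13 to 0.62 in the other 7 groups of that time. With that measure as a covariate Nqo1 was at 0.50 and still passed. For Txnrd1 the probe sets differed at 24 h, with 0.10 from the one used and 0.28 from the second one (adjusted p = 0.0151). All 5 erythroid markers were lower in heart at 24 h, with a median of -0.38. Of 5 liver markers 2 were lower, with a median of -0.75, and Alb had group medians of 10.51 (water) and 11.41 (F68) after D5W against 7.23 and 7.86 after oxaliplatin. Of 10 macrophage markers 1 was lower, with a median of -0.05. Their part in the Nqo1 difference was not tested.

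**Figure D4:**
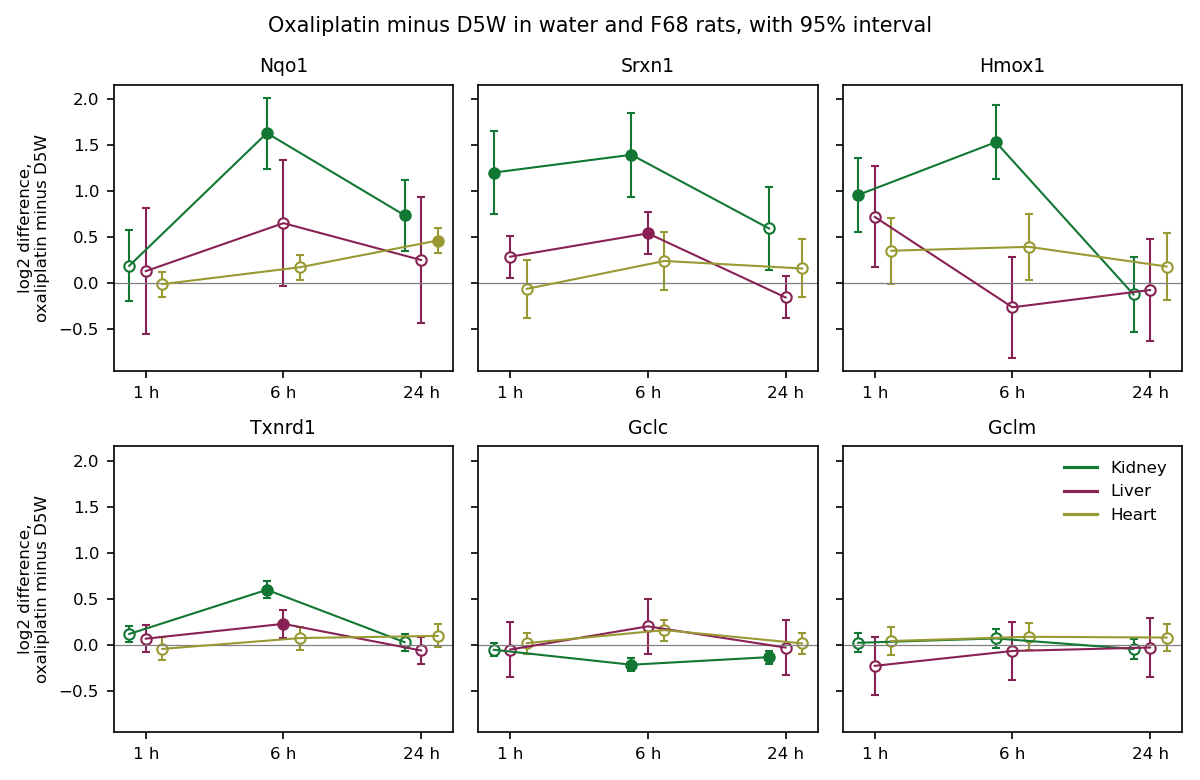
Log2 difference, oxaliplatin minus D5W (8 rats against 8), of each member at 1, 6 and 24 h in kidney, liver and heart, with 95% intervals and filled symbols where the test was passed. The kidney values at 6 h are 1.63 for Nqo1, 1.53 for Hmox1, 1.40 for Srxn1 and 0.60 for Txnrd1, Gclc is below 0 in kidney at 6 and 24 h, and no Gclm symbol is filled.

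The differences between tissues were tested directly in a fit over the 3 tissues and 10540 genes. The tissues come from the same rats, but the labels do not match them, so the fit treats them as unpaired. At 6 h the kidney difference exceeded that of heart by 1.46 ± 0.33 for Nqo1 (adjusted p = 0.00155), 1.14 ± 0.32 for Hmox1 (adjusted p = 0.0176), 1.16 ± 0.25 for Srxn1 (adjusted p = 6.44e-04) and 0.53 ± 0.09 for Txnrd1 (adjusted p = 3.37e-06), with 4.39% of genes past the test. It exceeded that of liver by 1.80 ± 0.32 for Hmox1 (adjusted p = 1.73e-05), 0.85 ± 0.25 for Srxn1 (adjusted p = 0.0244) and 0.37 ± 0.09 for Txnrd1 (adjusted p = 0.00312), with 3.83% of genes. For Nqo1 kidney against liver did not pass. Srxn1 in kidney also exceeded liver and heart at 1 h (0.92 and 1.27, with 1.54% and 1.89% of genes) and liver at 24 h (0.75, with 8.11% of genes). The last of these was lost with quantile normalization (0.69, adjusted p = 0.0738). For kidney against heart at 24 h 3.94% of genes passed and no member did. For liver against heart 2.24%, 4.64% and 16.7% of genes passed at 1, 6 and 24 h and no member did.

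Sunitinib and sorafenib given after D5W were each compared with their own vehicle, 4 rats against 4. A number in the sample titles, whose meaning is not given, is the same for oxaliplatin and D5W rats of an oral dose and time. It differs between a kinase inhibitor and its vehicle, so that number and the inhibitor cannot be told apart. The letter after the number, also unexplained, is A to D for D5W and E to H for oxaliplatin with water or F68. With sunitinib or sorafenib the letters are the other way round. Within an oral dose that letter and oxaliplatin therefore cannot be told apart, and neither can the letter and the interaction. In kidney 0 of 18 member tests passed in limma for sunitinib and 0 of 18 for sorafenib, with 2 and 1 at an unadjusted p under 0.05. At 6 h, when oxaliplatin raised Srxn1 by 1.40, its 95% interval for sunitinib minus water was -0.70 to 0.59 and for sorafenib minus F68 -0.73 to 0.55. Of all kidney genes tested, those past the test were 0.0244%, 0% and 0% for sunitinib and 0%, 0.0731% and 0.203% for sorafenib at 1, 6 and 24 h.

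Outside the kidney 4 member tests passed for a kinase inhibitor in the fit over genes, read from their brightest probe sets, all at 24 h. When each probe set was fitted, the Srxn1 set used here also passed in heart, with -0.64 at 1 h for sunitinib (adjusted p = 0.0409). The second Txnrd1 probe set also passed in heart, with 0.35 at 1 h (adjusted p = 0.0425) and 0.44 at 24 h (adjusted p = 0.00401) for sunitinib and -0.67 at 6 h for sorafenib (adjusted p = 6.72e-06), so the probe sets of Txnrd1 disagree there. The 6 h hearts of D5W then sorafenib had a beta-actin 3′ minus 5′ difference of 0.49 to 0.77, against 0.20 to 0.33 after D5W then F68. Its part in the second-set value was not tested. Of all genes sunitinib moved 10% and 0% in heart at 1 and 6 h and 0%, 0% and 0.964% in liver at 1, 6 and 24 h, and sorafenib moved 12.2% and 41.9% in heart at 1 and 6 h and 0.0689% and 0.0344% in liver. In heart Nqo1 stood at 9.28, 9.42, 9.49 and 9.50 after sunitinib and at 8.91, 8.98, 9.23 and 9.34 after water. The groups overlapped by 1 rat and differed by 0.30 ± 0.10 (adjusted p = 0.0131), where 25.4% of genes passed. These 24 h water hearts are the ones described above with a high beta-actin difference, and with that covariate the value was 0.38 (adjusted p = 0.0203). Without D5W then water replicate 1 it was 0.26 (adjusted p = 0.0647) and without replicate 2 it was 0.23 (adjusted p = 0.0922). In heart Gclc stood at 7.76, 7.78, 7.80 and 7.84 after sorafenib and at 8.04, 8.07, 8.12 and 8.15 after F68. These did not overlap and differed by -0.30 ± 0.08 (adjusted p = 0.0132), where 7.05% of genes passed. The call was lost without D5W then F68 replicate 3 (-0.29, adjusted p = 0.0555), with the beta-actin covariate (-0.27, adjusted p = 0.0771) and with quantile normalization anew (-0.25, adjusted p = 0.0504). Of 10 macrophage markers 6 were lower in these hearts, with a median of -0.74 and group medians of 7.86 after sorafenib and 9.01 after F68. The 5 liver markers had a median of -0.74 with 0 past the test, and Alb stood at 7.60 against 11.41. Their part in the Gclc difference was not tested.

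In liver at 24 h sorafenib moved 67.3% of all genes, with a median of -0.24 over all genes, so the members are read against that shift. Gclc stood at 9.89, 10.26 and 10.55 after sorafenib and at 10.99, 10.99, 11.01 and 11.05 after F68. The difference was -0.78 ± 0.23 (adjusted p = 0.00244). Txnrd1 stood at 10.93, 11.01 and 11.09 against 11.21, 11.22, 11.36 and 11.48, a difference of -0.31 ± 0.11 (adjusted p = 0.0138) that was close to that shift. Txnrd1 no longer passed without D5W then F68 replicate 1 (-0.25, adjusted p = 0.0585) or D5W then sorafenib replicate 2 (-0.27, adjusted p = 0.0621). When the arrays of a tissue were quantile-normalized again, Txnrd1 was at 0.04 and Gclc at -0.38, and neither passed. Of 10 macrophage markers 9 were lower in these livers, and their part was not tested. After oxaliplatin then sorafenib Gclc stood at 10.57, 10.67, 10.74 and 11.37. Oxaliplatin minus D5W within sorafenib rats was 0.61 for Gclc and 0.32 for Txnrd1, both past the test with 37.2% of genes. Under water, F68 and sunitinib Gclc was at 0.04, -0.10 and 0.46 and Txnrd1 at -0.13, 0.0009 and 0.04, none past the test. In the paper the liver arrays of D5W then sorafenib at 24 h had a signal distribution unlike the others. It held the biology of the response likely but asked for further quality assessment.

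**Figure D5:**
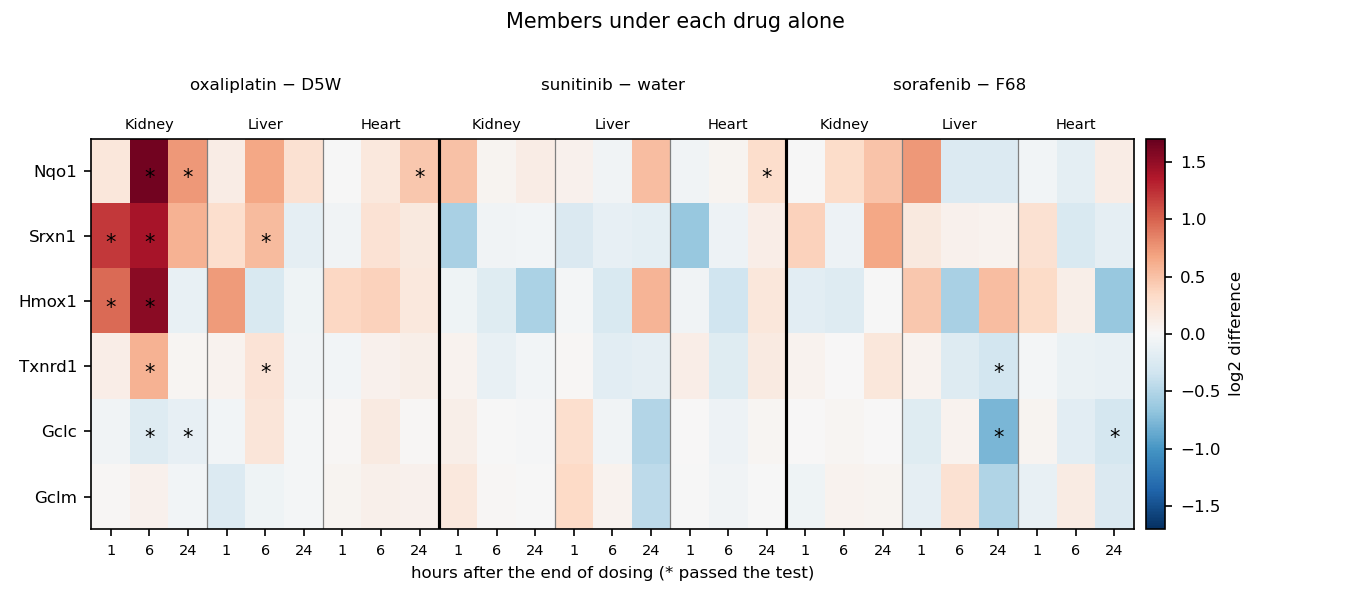
Log2 difference of each member (rows) for each drug against its own vehicle, by tissue and hours after dosing ended, red higher and blue lower, with * where the test was passed. The stars gather in kidney under oxaliplatin (9 of 18 tests), with 2 in liver and 1 in heart, against 0 in kidney under sunitinib or sorafenib.

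F68 against water passed for 4 of 18 heart tests. In limma it passed for 0 of 18 in kidney, where 3 had an unadjusted p under 0.05, and for 0 of 18 in liver, where 0 did. Of all genes 3.9%, 3.93% and 0.00812% passed in kidney and 0.198%, 0.396% and 0% in liver at 1, 6 and 24 h. At 1 h Hmox1 stood at 7.84, 8.15, 8.56 and 9.09 after water and at 7.37, 7.63, 7.78 and 7.84 after F68, a difference of -0.76 ± 0.26 (adjusted p = 0.0396), where 11.6% of genes passed at 1 h and 0.0177% at 6 h. At 24 h Nqo1 was higher after F68 by 0.39, Txnrd1 by 0.25 and Gclc by 0.24, where 16.8% of genes passed. With the beta-actin covariate 1 of the 4 heart calls was kept, that of Nqo1 (0.47). Gclc was then at 0.29 (adjusted p = 0.0649), Hmox1 at -0.64 (adjusted p = 0.133) and Txnrd1 at 0.17 (adjusted p = 0.387). Txnrd1 was also lost with no filter (adjusted p = 0.0541) and with quantile normalization (adjusted p = 0.0548), and Gclc with the mean of probe sets (0.13, adjusted p = 0.208).

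The rest of the pathway was read from 8 lists of 72 genes, of which 64 were tested in kidney, 63 in liver and 61 in heart. In kidney after oxaliplatin 6 were higher and 1 lower at 1 h, 17 higher and 2 lower at 6 h and 8 higher and 0 lower at 24 h. Of all genes 4.45%, 12.7% and 5.6% were higher and 4.96%, 7.88% and 2.18% lower at the 3 times. At 1 h the genes that rose were mainly regulators, 5 of 9, with a median over the 9 of 0.27 against -0.02 over all genes. Maff and Mafk, small Maf partners of Nrf2, rose by 1.64 ± 0.13 and 0.54 ± 0.05, and Nfe2l2, which encodes Nrf2, by 0.43 ± 0.06. Osgin1, an oxidative stress-induced growth inhibitor from the detoxification list, rose by 0.74 ± 0.08.

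At 6 h 6 of 9 regulators were higher in kidney, among them Sqstm1 (0.70 ± 0.05), an autophagy receptor that binds Keap1, and at 24 h 0 of 9. Detoxification and export had 5 of 13 higher and 1 lower at 6 h and 5 of 13 higher at 24 h. Abcc2, an export pump for glutathione conjugates, was higher by 0.89 ± 0.14 at 6 h and 0.63 ± 0.14 at 24 h. Pir, an iron-binding nuclear protein, was higher by 0.85 ± 0.14 and 0.73 ± 0.14, and Ephx1, the microsomal epoxide hydrolase, by 0.47 ± 0.07 at 24 h. Gstp1, a glutathione transferase, was higher by 0.46 and 0.48. Glutathione supply and use, the list next to Gclc and Gclm in function, had 0 of 9 past the limma test at 1 and 6 h and 1 at 24 h, and the list for removal of reactive oxygen had 0 of 4 at each time.

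In liver 2 pathway genes were higher and 1 lower at 1 h, 4 higher and 2 lower at 6 h and 2 higher and 8 lower at 24 h, with 1.59%, 6.72% and 1.72% of genes higher and 1.87%, 3.67% and 4.67% lower. At 6 h Akr1b8, an aldo-keto reductase, was higher by 0.69 ± 0.23 and Slc3a2, a subunit of the cystine transporter, by 0.41 ± 0.09. At 24 h 4 of 5 genes of NADPH supply were lower, among them malic enzyme Me1 (-0.999 ± 0.21), phosphogluconate dehydrogenase Pgd (-0.62 ± 0.13) and transketolase Tkt (-0.53 ± 0.09). Nfe2l2 itself was at -0.46 ± 0.14. In heart 24 of 61 pathway genes were higher and 1 lower at 24 h, where 14.4% of genes were higher and 4.75% lower. Gsta1 was at 0.65 ± 0.13, Ephx1 at 0.39 ± 0.10 and Gstm1 at 0.39 ± 0.08. Of the 9 heart glutathione transferases 5 were higher, with a median of 0.30. By oral dose, 22.1% of heart genes passed at 24 h with water, 0.23% with F68, 1.03% with sunitinib and 0.0442% with sorafenib. The D5W then water hearts of that time are those with a high beta-actin difference. Gstm1 was 0.85 higher after D5W then F68 than in them. Their part in the heart pathway values was not tested.

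Over the 24 group means of kidney, Nqo1 and Txnrd1 (Pearson r = 0.83), Srxn1 and Txnrd1 (0.82) and Hmox1 and Srxn1 (0.80) ran most alike among the members, and Nqo1 and Hmox1 less so (0.43). Srxn1 and Gclc ran opposite (-0.86). Gclm had r between 0.03 and 0.35 with every other member. The group means share times and the oxaliplatin treatment, so these r describe the pattern and carry no test. Among all kidney genes tested, the most alike were Polr3c for Nqo1 (0.92), Anxa1 and Txnl4b for Hmox1 (0.94 and 0.93), Tnfrsf1a for Srxn1 (0.93), Mybbp1a and Sqstm1 for Txnrd1 (both 0.92), Zdhhc14 for Gclc (0.88) and Cnot7 for Gclm (0.85).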

How the data were processed

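RNA of kidney, liver and heart was measured on Affymetrix rat whole-genome 3′ arrays, 1 array per rat and tissue. The deposited values are log2 signals that the authors made with RMA, at a version not given in the sources used here. Of 31099 probe sets 20826 had 1 gene symbol in the platform annotation, 436 several and 9780 none, and 57 were controls. Genes were read from their brightest probe set per tissue and tested where the signal was above 6 on at least 4 arrays. Each tissue was fitted with limma 3.58.1 in R 4.3.3, with 24 group means and moderated variance, and p-values were adjusted by Benjamini-Hochberg over all genes of a comparison. Between-tissue differences came from 1 fit over 286 arrays. The code was tested on simulated data. The 6 members and the pathway lists were chosen with earlier results of these data known. Up to 4 pathway genes a comparison were named, those past the test with the largest differences, and for each member the genes most correlated over group means. Alternatives were quantile normalization anew, no filter, the mean of probe sets, a beta-actin covariate, a trended robust variance, 1 time or 1 oral dose alone, all arrays as labelled, other arrays that stand apart left out, and each array left out. Averaging over all 4 oral doses and fitting each probe set were added after seeing the data. The number of arrays limits the precision.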

Additional observations from a re-analysis of the deposited data

Results flagged for a closer look

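In 16 of 420 groups of 4 rats the gap of the extreme rat to its nearest neighbour, over the group's range, passed Dixon's 95% value, and chance gives about 1 in 20 groups. In kidney the gap was 0.975 for Nqo1 at 1 h after oxaliplatin then sunitinib (10.14, the array of low BioB), and for Srxn1 after D5W then sunitinib it was 0.880 at 6 h (9.59) and 0.846 at 24 h (9.88). In liver it was 0.957 for Gclc at 1 h after D5W then water (10.81). Liver Hmox1 at 6 h had gaps of 0.846 after D5W then sorafenib (11.36), 0.869 after oxaliplatin then sorafenib (11.05) and 0.948 after oxaliplatin then water (11.53). In heart Nqo1 at 24 h had gaps of 0.932 after oxaliplatin then sorafenib (9.58, the lowest) and 0.849 after oxaliplatin then sunitinib (10.05). Heart Hmox1 at 24 h had 0.834 after D5W then sorafenib (6.90, the lowest). Heart Srxn1 had 0.904 at 1 h after D5W then sunitinib (7.73) and 0.835 after oxaliplatin then F68 (8.54), and at 6 h 0.918 after D5W then F68 (7.60, the lowest) and 0.858 after oxaliplatin then F68 (8.57). Heart Gclc at 1 h had 0.887 after oxaliplatin then water (7.99), and heart Gclm at 24 h 0.945 after oxaliplatin then F68 (8.95).

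The oxaliplatin difference itself was tested for differing between times, between tissues and between a kinase inhibitor and its vehicle (the interaction). Of these 198 tests 18 passed, all of them between times or tissues. From 1 to 6 h in kidney these were Nqo1 (1.44), Txnrd1 (0.48) and Gclc (-0.16). From 6 to 24 h they were Nqo1 (-0.89), Hmox1 (-1.66) and Txnrd1 (-0.57) in kidney, Srxn1 (-0.70) in liver and Nqo1 (0.29) in heart, a call that no filter, quantile normalization and the beta-actin covariate each ended. Between kidney and liver they were Srxn1 at 1 h (0.92), Hmox1 (1.80), Srxn1 (0.85) and Txnrd1 (0.37) at 6 h and Srxn1 at 24 h (0.75, lost with quantile normalization). Between kidney and heart they were Srxn1 at 1 h (1.27) and Nqo1 (1.46), Hmox1 (1.14), Srxn1 (1.16) and Txnrd1 (0.53) at 6 h.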

How the results depend on the processing

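The kidney oxaliplatin count of 5 members at 6 h stayed within 1.5 times under every alternative run. With all arrays as labelled, counts moved from 2 to 1 for oxaliplatin in kidney at 24 h and in liver at 6 h, from 0 to 3 for sorafenib in kidney at 24 h, from 2 to 0 for sorafenib in liver at 24 h (Gclc at 0.25) and from 9 to 5 for oxaliplatin then sorafenib in kidney. Averaged over all 4 oral doses, oxaliplatin had 4 members in kidney at 1 h, 2 in liver at 1 h and 2 in heart at 6 h. That setting compared 16 rats with 16, and its share of all genes past the test is not given here. Under 1 oral dose, with fewer rats, kidney had 1 under F68 or sorafenib at 1 h and 0 under each dose at 24 h. Liver had 1 under F68 and 0 under water or sorafenib at 6 h (Nqo1 at -0.22 under sorafenib) and 2 under sorafenib at 24 h. Heart had 1 under sunitinib at 1 h, 1 under sorafenib at 6 h and 0 under F68, sunitinib or sorafenib at 24 h. The shares of all genes under single doses are not given here for liver at 6 h and for heart at 1 and 6 h. Fitting 1 time only gave 1 for oxaliplatin in liver at 1 h, 1 for sunitinib in heart at 1 h, 2 for sorafenib in heart at 24 h and 1 for oxaliplatin then sorafenib in liver. The mean of probe sets gave 2 for sunitinib in heart at 24 h, 2 for sorafenib in heart at 6 h and 2 for oxaliplatin then sunitinib in heart. Quantile normalization gave 2 for sorafenib in heart at 6 h and 0 at 24 h, 1 in liver at 24 h (Txnrd1 at 0.043), 1 for F68 against water in kidney and 0 between times in heart, as did no filter. The beta-actin covariate gave 0 for sorafenib in heart at 24 h, 0 between times in heart, 1 for F68 against water in heart and 1 for the sorafenib interaction in liver. Without the arrays that stand apart, oxaliplatin then sunitinib in kidney fell from 8 to 5. Leaving out 1 array moved counts between 1 and 2 for oxaliplatin in liver at 6 h, between 1 and 3 for sorafenib in liver at 24 h, and between 0 and 1 for sorafenib in heart at 6 and at 24 h, for sunitinib in heart at 1 and at 24 h and for the sorafenib interaction in liver. The cause was not tested. No paired analysis was possible because the labels carry no replicate numbers shared between groups.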

Other observations

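Pathway genes also moved after the kinase inhibitors outside the kidney. In heart at 24 h sunitinib had 19 of 61 higher and 0 lower, among them the transferases Gstm1 (0.65) and Gstp1 (0.45), mitochondrial thioredoxin Txn2 (0.56) and Pgd (0.43), where 25.4% of all genes passed. Against the same water hearts, F68 had Gstm1 at 0.85, Gstp1 at 0.48 and Pgd at 0.40. Those water hearts had a beta-actin 3′ minus 5′ difference of 0.71 to 0.81, against 0.37 to 0.57 after D5W then sunitinib. The part of the water hearts in the sunitinib values was not tested. In heart at 6 h sorafenib had 9 higher and 18 lower, where 41.9% of all genes passed and none of the 6 members did from its brightest probe set (the second Txnrd1 set was at -0.67), with extracellular superoxide dismutase Sod3 at -1.05, Gstm2 at -0.74 and the export pump Abcc4 at 0.64. The beta-actin difference was also higher in these hearts than in their F68 vehicle (0.49 to 0.77 against 0.20 to 0.33), and its part in these pathway values was not tested. In liver at 24 h sorafenib had 6 of 63 higher and 23 lower, with a median of -0.22 against -0.24 over all genes, of which 67.3% passed. Biliverdin reductase Blvra was at -1.05 and Nfe2l2 at -0.86, while the small Maf gene Mafg was at 0.72.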
